A study of Mus musculus with 4 samples.

Results

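The zinc-dependent histone deacetylases were followed as a gene family in 4T1 cells sorted by mitochondrial membrane potential (MMP). The 10 family members were taken by gene symbol: *Hdac1*, *Hdac2*, *Hdac3* and *Hdac8* of class I, *Hdac4*, *Hdac5* and *Hdac7* of class IIa, *Hdac6* and *Hdac10* of class IIb, and *Hdac11* of class IV. They are 10 of the 20197 genes measured, and all 10 had reads in every library. *Hdac9* was not analysed here.

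4T1 is an established line of mouse mammary tumor cells with metastatic spread in the animal, and the cells are labelled wildtype, with no further allele. Cells in culture were stained with 20 nM MitoSpy Red, a dye that gathers in mitochondria according to MMP, and the 5% with the strongest or weakest staining were sorted as high MMP and low MMP cells. Each group had 2 samples of 100000 cells, of which 200 ng RNA entered a stranded mRNA library read for 75 cycles. Both groups therefore carried the dye and passed through the sorter, and the model is a single cultured line without its host tissue. The study describes the samples of a group as independent experiments, without saying which sample numbers share an experiment.

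Histone deacetylases remove acetyl groups from lysines of histones and other proteins, and so oppose the acetyltransferases that spend acetyl-CoA. The class I enzymes HDAC1, HDAC2 and HDAC3 are nuclear and act inside multi-subunit co-repressor complexes. Class IIa enzymes have little deacetylase activity of their own, bind MEF2 transcription factors, and leave the nucleus when kinases phosphorylate them and 14-3-3 proteins hold them. HDAC6 is a cytoplasmic deacetylase of tubulin, HDAC10 deacetylates polyamines, and HDAC11 removes fatty acyl groups. The study asked how acetyl-CoA supply and histone acetylation relate to the capacity to metastasize, and the comparison of high with low MMP cells shows how the transcripts of the enzymes that take acetyl groups off were distributed between the sorted cells.

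Values are normalized reads, on a scale where each library sums to 20000000. The recovered depth was 22591970 to 26395015 reads per library. High MMP replicate 1 stood apart in that mitochondrially encoded transcripts took 1.35% of its reads, against 2.15% to 2.37% in the other libraries. Of 6 epithelial markers all were detected, with *Krt8* at 13147 to 19554 normalized reads, while the endothelial *Pecam1* and *Cdh5* stayed at or below 5.30 and the leukocyte gene *Ptprc* at or below 1.77. Without overlap, the epithelial *Cdh1* was lower in high MMP cells (log2 difference -0.34, limma adjusted p = 0.498) and *Krt14* higher (0.32, limma adjusted p = 0.472). The other epithelial markers overlapped. The macrophage marker *Cd68* (59.9 to 149) and the fibroblast marker *Dcn* (1.74 to 9.09) overlapped between the groups. *Pdgfra*, the other fibroblast marker, did not: it had 319 and 363 normalized reads in high and 536 and 589 in low MMP cells, a log2 difference of -0.72 (limma adjusted p = 0.472), which exceeds that of any histone deacetylase gene. The groups differed in cell cycle genes: the summed 5 G2/M markers were 58244 and 59455 in high MMP cells against 28325 and 31619 in low MMP cells, and the summed 5 S-phase markers were 18557 and 14617 against 23683 and 24069. The part of the cell cycle genes and of *Pdgfra*, *Cdh1* and *Krt14* in the differences below was not tested. In such bulk samples, fewer cells that carry a transcript and less of it per cell cannot be told apart.

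None of the 10 genes passed an adjusted p of 0.05 for the difference between high and low MMP cells when limma was fitted across all genes, and 0% of the 20197 genes did. At an unadjusted p under 0.05 only *Hdac5* passed, with a lower value in high MMP cells, as did 6.01% of all genes in that direction. A negative difference (high minus low MMP) was found for 8 of the 10 genes, and the share of all genes with one was not counted. For 6 of them, *Hdac3*, *Hdac5*, *Hdac6*, *Hdac7*, *Hdac10* and *Hdac11*, both high MMP samples lay below both low MMP samples. For 0 genes did both lie above. These overlap counts use values scaled to library totals and were not repeated under other scaling. Median-of-ratios scaling divided the high MMP libraries by 0.982 and 0.994 and the low MMP libraries by 1.01 and 1.02. That raises high MMP values relative to low ones. Gaps were narrow for *Hdac3* (2056 in high against 2067 in low MMP cells) and *Hdac10* (180.8 against 183.9). Over all genes, 24.5% were lower and 13.5% higher without overlap, and of the 12902 genes that averaged at least 10 normalized reads 23.7% were lower and 14.3% higher. The median difference over the family was -0.11 on the log2(value + 1) scale, beside -0.04 over all genes and -0.03 over those averaging at least 10. Under median-of-ratios scaling the family median was -0.07, beside -0.01 over all genes. In edgeR it was -0.07, beside 0.0049 over the tested genes. Without high MMP replicate 1, the number of family members lower without overlap was 8, where 42.1% of all genes were.

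**Figure D1:**
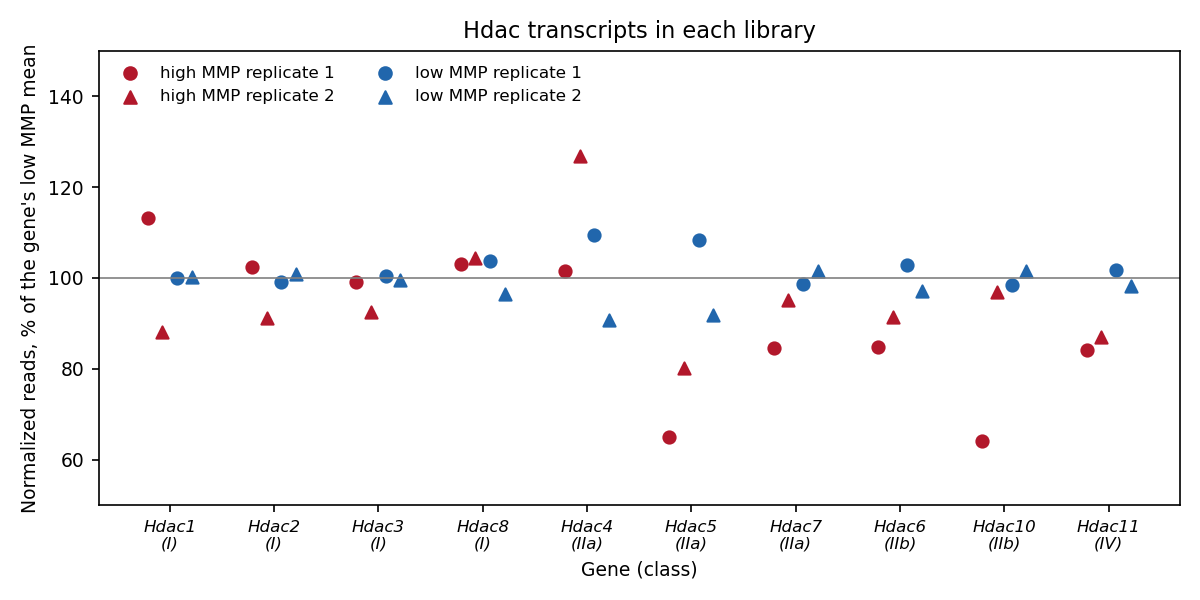
Normalized reads of the 10 histone deacetylase genes in each library, in percent of the gene's low MMP mean (grey line), with high MMP samples in red, low MMP samples in blue and a marker shape per replicate number. For *Hdac5*, *Hdac6* and *Hdac11* both red points lie below both blue points, while those of *Hdac1*, *Hdac2*, *Hdac4* and *Hdac8* overlap.

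Levels between the genes were compared per kilobase of exon, as normalized reads per kb over the 4 libraries (mean ± SD, n = 4). The class I transcripts *Hdac2* (841 ± 42.6) and *Hdac1* (731 ± 74.5) were the most abundant, and their ranges overlapped. *Hdac3* (501 ± 18.9) and *Hdac7* (432 ± 33.7) followed. A step of 3.34-fold separated these 4 genes from *Hdac6* (129 ± 10.6) and *Hdac5* (104 ± 22.0), which overlapped each other. *Hdac10* (49.9 ± 9.68) and *Hdac4* (49.5 ± 7.03) were not separated by their ranges, and *Hdac8* (29.4 ± 1.06) and *Hdac11* (20.9 ± 1.92) closed the order. Among genes averaging at least 1 normalized read, *Hdac2* stood at the 93.2 percentile of levels per kb and *Hdac11* at the 38.0 percentile. The family in these cells was thus carried mainly by the nuclear class I enzymes and a single class IIa gene, *Hdac7*.

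**Figure D2:**
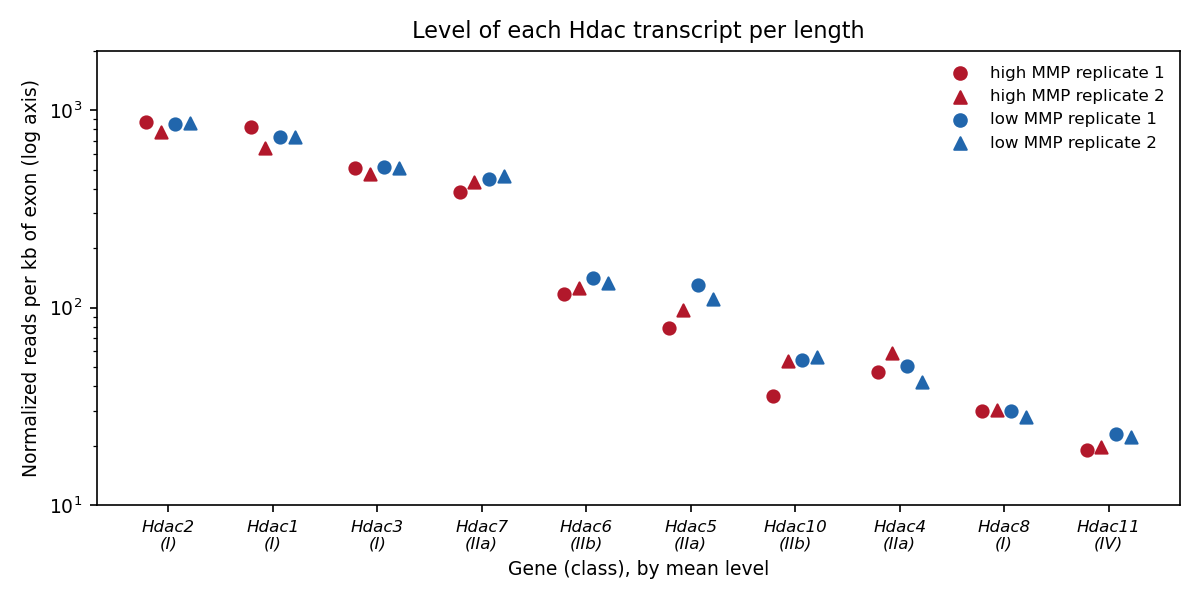
Normalized reads per kb of exon for each gene, ordered by mean, on a log axis, with a point per library. The means run from 841 for *Hdac2* to 20.9 for *Hdac11*, with the widest step, 3.34-fold, between *Hdac7* and *Hdac6*.

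Class I held most of the family's transcripts in every library, and its sum did not separate the groups. Class I genes made up 76.7% and 71.0% of the family's summed reads per kb in the high MMP samples and 71.4% and 72.1% in the low MMP samples. Summed normalized reads of class I were 8953 and 7761 in high MMP cells and 8527 and 8569 in low MMP cells, a log2 ratio of the group means of -0.03. The low MMP samples lay between the high MMP samples, so the spread within high MMP cells was larger than the difference between groups.

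*Hdac1* (chr4:129516104-129542713, minus strand) encodes a catalytic subunit shared by the NuRD, Sin3 and CoREST co-repressor complexes. It had 2839 and 2211 normalized reads in high MMP cells and 2507 and 2512 in low MMP cells. Its log2 difference was -0.00 ± 0.14 (SE), with a 95% interval of -0.39 to 0.39, and the groups overlapped. High MMP replicate 1 held the highest and replicate 2 the lowest value of the series, and these 2 replicates differed far beyond counting noise (chi-square 97.4 on the recovered reads, where 3.84 marks an unadjusted p of 0.05), while the low MMP replicates did not (0.004). The sign of the *Hdac1* difference depended on the processing, with 0.05 in edgeR. The value is also uncertain because 28.0% of the 75-base stretches of *Hdac1* transcripts occur in the processed pseudogene *Gm10093*, and how reads matching both were counted is not given in the sources used here. *Gm10093* carried 442 and 341 normalized reads in high and 396 and 409 in low MMP cells, which is 15.4% to 16.3% of *Hdac1* in each library, and adding it to *Hdac1* gave 3281 and 2552 against 2903 and 2921.

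*Hdac2* (chr10:36974544-37001889, plus strand), the close paralog of *Hdac1* in the same complexes, had 3914 and 3486 normalized reads in high and 3790 and 3855 in low MMP cells. The log2 difference was -0.05 ± 0.09 (SE; 95% interval -0.31 to 0.21), and the groups overlapped. As for *Hdac1*, the high MMP samples bracketed the low MMP samples. *Hdac2* shared no 75-base stretch with another gene, so its reads are not ambiguous in the way those of *Hdac1* are.

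*Hdac3* (chr18:37935844-37955016, minus strand), the catalytic subunit of the NCoR/SMRT complex, had 2056 and 1918 normalized reads in high and 2085 and 2067 in low MMP cells. Both high MMP samples lay below both low MMP samples, but the difference was small, at -0.06 ± 0.08 (SE; 95% interval -0.28 to 0.15, limma adjusted p = 0.876), and without high MMP replicate 2 it was -0.01. *Hdac8* (chrX:102284639-102505359, minus strand), which deacetylates the cohesin subunit SMC3, had 144.0 and 145.6 normalized reads in high and 144.7 and 134.6 in low MMP cells. The values of *Hdac8* overlapped, with a log2 difference of 0.05 ± 0.12 (SE). Its 95% interval was -0.28 to 0.39, on 152 to 190 recovered reads per library. *Hdac8* was the only class I gene whose replicates agreed within counting noise in both groups (chi-square 0.012 and 0.42).

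Class IIa genes had differences of both signs, and none passed the adjusted threshold. Their sum was 4027 and 4701 normalized reads in high and 4974 and 4751 in low MMP cells, a log2 ratio of -0.16 and a difference of -10.3%. Without high MMP replicate 1 the log2 ratio was -0.05, and without high MMP replicate 2 it was -0.27. *Hdac7* supplied most of these reads, so the sum says little of *Hdac4* and *Hdac5*.

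*Hdac5* (chr11:102194432-102230166, minus strand) encodes a signal-responsive co-repressor of MEF2 factors. It had 690 and 850 normalized reads in high and 1147 and 973 in low MMP cells, so both high MMP samples lay below both low MMP samples. The means were 770 ± 114 and 1060 ± 123 (SD, n = 2 each), and the high MMP mean differed from the low MMP mean by -27.4%. On the log2 scale the difference was -0.46 ± 0.15 (SE; 95% interval -0.87 to -0.05), with an unadjusted limma p of 0.0347 and an adjusted p of 0.472. In this fit it was the largest difference of the family and the only interval that did not reach 0. Under quantile normalization, without the trend, with either low MMP sample left out or with a replicate block in limma, 0 genes of the family had an unadjusted p under 0.05. Without high MMP replicate 2 the difference of *Hdac10* (-0.64) exceeded that of *Hdac5* (-0.61). *Hdac5* did not pass the adjusted threshold in limma, in edgeR without a block (adjusted p = 0.509) or in DESeq2 (0.605). It passed in edgeR with crossed sample numbers as a block, a fit added after seeing the data (adjusted p = 0.00777), where 2.27% of tested genes were called lower. Same-numbered samples differed by -0.73 and -0.19. The replicates of *Hdac5* varied beyond counting noise in both groups (chi-square 21.1 in high and 16.3 in low MMP cells), and without high MMP replicate 1 the difference was -0.31.

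*Hdac4* (chr1:91928779-92195699, minus strand), which shares the MEF2-binding role, had 742 and 926 normalized reads in high and 799 and 662 in low MMP cells. The groups overlapped, and the log2 difference was 0.19 ± 0.16 (SE; 95% interval -0.25 to 0.63, limma adjusted p = 0.806). It was the only class IIa gene with a positive difference. Same-numbered samples went opposite ways, at -0.11 and 0.48. The difference was 0.03 without high MMP replicate 2 and 0.05 without low MMP replicate 2, against 0.35 and 0.32 without the respective replicate 1. An antisense transcript, *Gm26720*, covers 22.4% of the exon bases of *Hdac4*, and since the strand setting of the counting is not given in the sources used here, reads of both strands may not be separate. *Gm26720* itself was not analysed here.

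*Hdac7* (chr15:97792664-97844502, minus strand), the class IIa gene with the highest level, had 2596 and 2925 normalized reads in high and 3029 and 3116 in low MMP cells. The groups did not overlap. The log2 difference was -0.16 ± 0.09 (SE; 95% interval -0.42 to 0.10, limma adjusted p = 0.707), and it was -0.07 without high MMP replicate 1 and -0.24 without high MMP replicate 2.

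Both class IIb genes were lower in high MMP cells without overlap, although neither passed the test. Their sum was 797 and 911 normalized reads in high and 1005 and 966 in low MMP cells, which differed by -13.3%. The log2 ratio of these sums was -0.21, and -0.11 without high MMP replicate 1. *Hdac6* (chrX:7930120-7947889, minus strand), the tubulin deacetylase, had 677 and 731 normalized reads in high and 821 and 776 in low MMP cells. The *Hdac6* difference was -0.18 ± 0.09 (SE; 95% interval -0.42 to 0.06, limma adjusted p = 0.626). Its replicates differed by no more than counting noise in either group (chi-square 2.52 and 1.43).

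*Hdac10* (chr15:89123307-89128700, minus strand), the polyamine deacetylase, had 119.7 and 180.8 normalized reads in high and 183.9 and 189.4 in low MMP cells. High MMP replicate 2 lay just below the low MMP samples, on 216 recovered reads against 211 and 214 before scaling. The high MMP replicates differed beyond counting noise (chi-square 15.7) and the low MMP replicates did not (0.092). The difference of -0.34 ± 0.23 (SE; 95% interval -0.97 to 0.29, limma adjusted p = 0.748) rested on high MMP replicate 1, which had 158 recovered reads. Without that library the log2 difference was -0.05, and without high MMP replicate 2 it was -0.64.

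*Hdac11* (chr6:91156665-91174692, plus strand), the only class IV gene, had the fewest reads of the family, 90 to 101 per library. Its normalized reads were 72.7 and 75.3 in high and 88.0 and 85.0 in low MMP cells, so the groups did not overlap and the high MMP mean differed by -14.4%. The log2 difference was -0.22 ± 0.15 (SE; 95% interval -0.63 to 0.19, limma adjusted p = 0.745). Replicates agreed within counting noise in both groups (chi-square 0.056 and 0.062). The opposite-strand gene *Gm44002* covers 15.4% of the exon bases of *Hdac11* and had only 0.885 to 4.36 normalized reads.

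**Figure D3:**
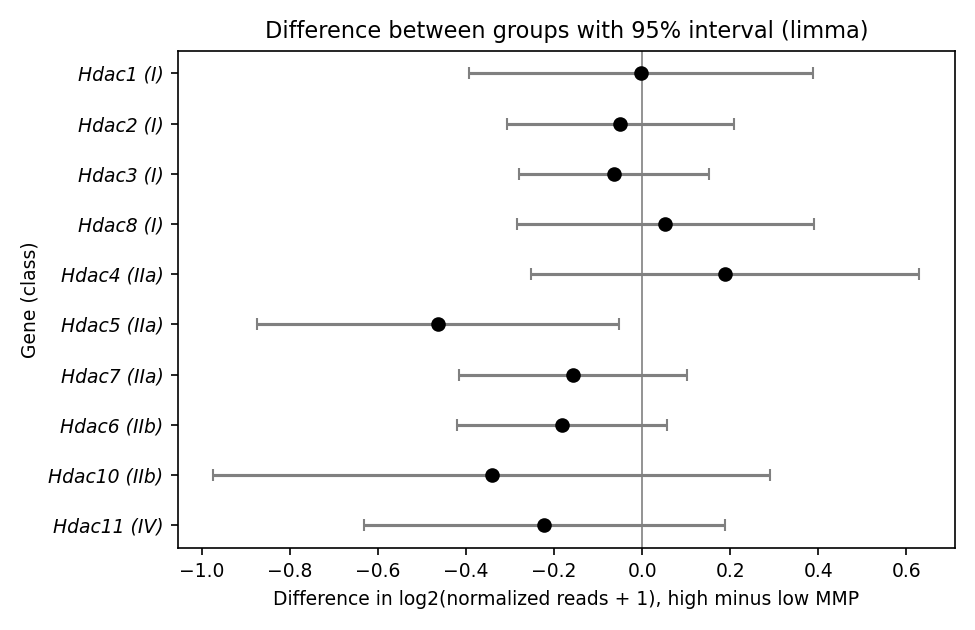
Log2 difference of each gene, high minus low MMP, with its 95% interval from the limma fit across all genes. In this fit the interval of *Hdac5* (-0.87 to -0.05) is the only one that does not include 0.

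Promoter sequences are shown for *Hdac5*, the gene with the largest difference, and for *Hdac4*, the class IIa gene with a positive difference. Those of *Hdac6* and *Hdac11* are added as the genes lower in high MMP cells whose replicates agreed within counting noise. Each window runs 5′ to 3′ along the gene from 250 bases before to 50 after its RefSeq start on GRCm38.p6, where 7 of the 10 genes matched. The RefSeq start of *Hdac4* lies 15358 bases and that of *Hdac11* 150 bases inside the GENCODE gene bounds given above, while those of *Hdac5* and *Hdac6* lie within 6 bases of them. Capitals mark GC boxes (GGGCGG, or CCGCCC on the other strand) and CCAAT boxes (CCAAT, or ATTGG on the other strand). The *Hdac5* window is chr11:102230123-102230422 (minus strand), that of *Hdac4* chr1:92180292-92180591 (minus), that of *Hdac6* chrX:7947840-7948139 (minus) and that of *Hdac11* chr6:91156565-91156864 (plus).
Hdac5: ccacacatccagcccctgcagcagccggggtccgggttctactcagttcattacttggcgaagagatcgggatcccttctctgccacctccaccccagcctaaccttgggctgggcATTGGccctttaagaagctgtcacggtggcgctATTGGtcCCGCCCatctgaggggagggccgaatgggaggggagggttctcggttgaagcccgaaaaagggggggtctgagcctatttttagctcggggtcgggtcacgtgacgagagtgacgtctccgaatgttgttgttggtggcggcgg
Hdac4: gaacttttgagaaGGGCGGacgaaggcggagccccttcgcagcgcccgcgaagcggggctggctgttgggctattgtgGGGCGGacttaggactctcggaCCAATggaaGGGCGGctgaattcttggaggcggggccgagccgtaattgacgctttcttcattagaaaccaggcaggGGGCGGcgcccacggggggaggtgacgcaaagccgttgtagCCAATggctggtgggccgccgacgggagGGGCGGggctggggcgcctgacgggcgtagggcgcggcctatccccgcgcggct
Hdac6: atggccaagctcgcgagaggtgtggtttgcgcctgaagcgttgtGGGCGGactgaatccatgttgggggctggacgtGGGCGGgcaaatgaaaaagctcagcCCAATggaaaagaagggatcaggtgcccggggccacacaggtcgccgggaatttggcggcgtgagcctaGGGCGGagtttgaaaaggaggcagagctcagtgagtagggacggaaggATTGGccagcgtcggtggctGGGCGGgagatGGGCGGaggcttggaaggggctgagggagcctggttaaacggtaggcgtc
Hdac11: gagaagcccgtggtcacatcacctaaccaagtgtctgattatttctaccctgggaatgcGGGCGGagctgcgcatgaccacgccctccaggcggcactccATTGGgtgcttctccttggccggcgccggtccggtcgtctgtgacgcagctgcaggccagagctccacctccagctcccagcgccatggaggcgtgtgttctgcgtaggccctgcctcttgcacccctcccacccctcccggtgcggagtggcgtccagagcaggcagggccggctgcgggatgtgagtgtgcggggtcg
The windows of *Hdac4* and *Hdac6* held 5 GC boxes and 2 CCAAT boxes each. *Hdac5* held 1 GC box, 2 CCAAT boxes and 1 E-box (CACGTG), and *Hdac11* held 1 GC box and 1 CCAAT box. No TATAAA was found in these 4 windows. Of 32851 promoter windows of the same length, 35.7% held a GC box, 37.4% a CCAAT box, 7.15% the E-box and 13.6% TATAAA on either strand. The number of CpG was 32 in *Hdac4*, 22 in *Hdac11*, 20 in *Hdac6* and 18 in *Hdac5*, against a median of 7 over all windows, of which 29.7% held at least 18. *Hdac6*, with a lower value in high MMP cells, and *Hdac4*, with a positive difference, thus had the same number of both boxes, and these matches describe the letters only.

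Transcripts of the complexes and substrates around these enzymes were then described with 11 lists of 100 genes, of which 99 were in the table. With limma 0 of the 99 passed the adjusted threshold, and at an unadjusted p under 0.05 there were 5 with a higher and 2 with a lower value in high MMP cells. Without overlap, 22 of 99 (22.2%) were lower and 19 (19.2%) higher, near the background of 24.5% and somewhat above that of 13.5%. The median log2 difference was 0.01.

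Partners of the class I enzymes were more often lower than higher in high MMP cells without overlap, as were genes in general (24.5% lower and 13.5% higher). In CoREST, 4 of 7 genes were lower and 0 higher without overlap, in Sin3 5 of 13 and 1, in NuRD 4 of 13 and 1, and in NCoR/SMRT 2 of 5 and 1. The median differences of these 4 lists lay between -0.08 and -0.04. *Rcor2*, which encodes a CoREST scaffold protein, had 419 and 474 normalized reads in high and 691 and 659 in low MMP cells, a log2 difference of -0.60 ± 0.10 (SE; limma adjusted p = 0.472). *Sap30*, a Sin3 subunit, had a positive difference, with 347 and 373 in high and 290 and 256 in low MMP cells (0.40 ± 0.12, SE; adjusted p = 0.472). The NuRD helicases *Chd3* (-0.21, and -0.11 without high MMP replicate 1) and *Chd4* (-0.20, and -0.09 without it), the Sin3 subunit *Ing2* (-0.25) and *Rcor3* (-0.24) were lower without overlap at adjusted limma p-values of 0.536 to 0.699. In NCoR/SMRT the transducin-like *Tbl1x* (0.19) and *Tbl1xr1* (-0.13) had differences of opposite sign. In MiDAC, a mitotic complex of HDAC1 and HDAC2, 1 of 3 genes was higher without overlap and 0 lower, with *Dnttip1* at 0.14 and *Elmsan1* at 0.09.

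Around the class IIa enzymes, 22 genes were listed: kinases, 14-3-3 and transport genes, *Ankra2* and *Rfxank*. Of these, 6 were higher without overlap and 3, *Ankra2* among them, were lower, with a median of 0.04. Over all genes 13.5% were higher and 24.5% lower without overlap. *Sfn*, which encodes 14-3-3 sigma, had 2686 and 1905 normalized reads in high and 1282 and 1308 in low MMP cells, a log2 difference of 0.80 ± 0.19 (SE; limma adjusted p = 0.472). DESeq2 called it (adjusted p = 0.00085), and edgeR without a block did not (0.230). *Camk2d*, a calcium/calmodulin-dependent kinase gene, had a difference of 0.21 (limma adjusted p = 0.488). The related *Camk2g* went the other way without overlap, at -0.27 (limma adjusted p = 0.498). Of the 4 MEF2 genes 1 was higher without overlap, with *Mef2a* at 0.17 and *Mef2c* at -0.14. In limma none of these genes passed the adjusted threshold.

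For the class IIb enzymes, 4 of 10 HDAC6 substrates and partners were higher and 1 lower without overlap, where 13.5% and 24.5% of all genes were, and the remaining 5 overlapped. The alpha-tubulin gene *Tuba1c* had 8311 and 7307 normalized reads in high and 4122 and 4776 in low MMP cells, a log2 difference of 0.81 ± 0.13 (SE; limma adjusted p = 0.472). It too was called by DESeq2 (adjusted p = 1.47e-05) and not by edgeR without a block (0.138). *Atat1*, the tubulin acetyltransferase that opposes HDAC6, had a difference of -0.32 (adjusted p = 0.571). Of 9 polyamine genes 1 was lower and 1 higher without overlap, with *Sat1* at 0.11 and *Paox* at -0.14. Among 5 genes listed around HDAC8 and HDAC11, not all of them substrates, 2 were higher and 1 lower without overlap. The cohesin acetyltransferase *Esco2* was at 0.29 and the cohesin subunit *Smc1a* at 0.18. *Smc3*, whose protein HDAC8 deacetylates, overlapped between the groups (-0.08). Several of these genes are also known to move with the cell cycle, whose summed markers did not overlap between the groups as given above. The part of the cell cycle was not tested.

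The last list held 8 genes that HDAC inhibitors are known to induce. In it 1 gene was higher and 1 lower without overlap, where 13.5% and 24.5% of all genes were, and the median was -0.00. *Clu* had a difference of 0.18 and was the gene higher without overlap. *Cdkn1a*, the cyclin-dependent kinase inhibitor p21, had a difference of 0.17, but its groups overlapped. Same-numbered samples of *Cdkn1a* differed by -0.02 and 0.35. Also overlapping were *Nr4a1* (0.09), *Gsn* (0.03), *H1f0* (-0.03), *Klf4* (-0.17) and *Klf2* (-0.39). *Txnip*, a regulator of glucose uptake, had 534 and 332 normalized reads in high and 598 and 678 in low MMP cells, with a difference of -0.59 (limma adjusted p = 0.576). Without high MMP replicate 1 it was -0.94 and without high MMP replicate 2 it was -0.25.

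**Figure D4:**
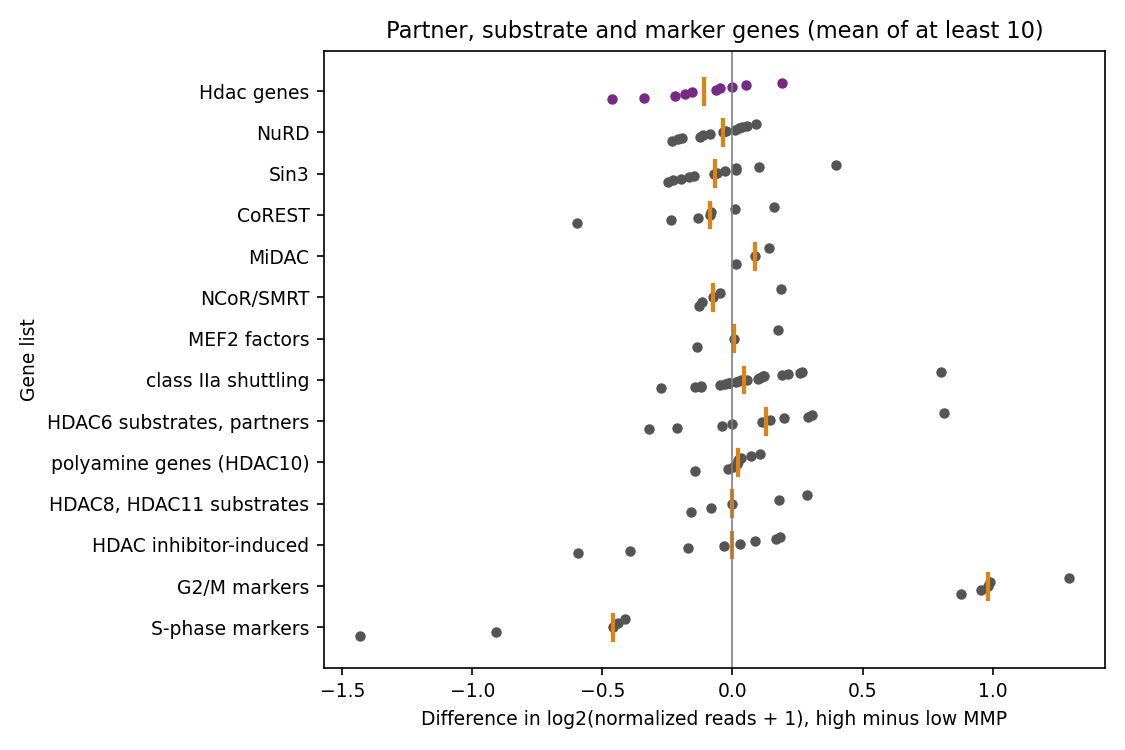
Log2 difference, high minus low MMP, of each gene averaging at least 10 normalized reads, grouped by list, with an orange bar at each list's median. *Tuba1c* (0.81) and *Sfn* (0.80) lie highest among partner and substrate genes, and the G2/M and S-phase markers lie on opposite sides of 0.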

How the data were processed

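RNA-sequencing values of 4 samples were used, grouped by their titles. The authors aligned reads to the mouse transcriptome (GRCm38) and quantified genes with STAR (their processing notes also name HTSeq), divided counts by library totals and filtered for genes detected in at least 2 samples. Versions are not given in the sources used here. The deposited values were thus a normalized signal per gene, each library summing to 20000000. Dividing by the smallest step of a library (0.758 to 0.885) gave whole reads for 100% of values (tolerance 0.01), and these reads served for depth, chi-square values and count tests. GENCODE M21 on GRCm38 matched 19993 of 20197 identifiers and gave positions, exon lengths and 75-base stretches shared between transcripts.

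The test was limma on log2(value + 1), in version 3.58.1 (eBayes with a trend, R 4.3.3), over all genes, high against low MMP, with Benjamini-Hochberg adjustment over 20197 genes and a threshold of 0.05. Differences on this scale understate changes of genes with low values. The fit was first tested on simulated data with the same replicate variation set for every gene. That test does not measure its power in these data. Alternatives were pseudocounts of 0.5 and 5, minimum means of 1 and 10, median-of-ratios and quantile scaling, a fit with no trend, edgeR 4.0.16 and DESeq2 1.42.0 on recovered reads, a replicate block and leaving out each sample. The crossed block and the overlap counts without a sample were added after seeing the data.

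Class sums and list counts carry no test. The family members, the partner lists and the tests were chosen with earlier results of these data known. Named partner genes are, per list, the 2 of smallest unadjusted p with a mean of at least 10 normalized reads. *Cdkn1a*, *Camk2g*, *Smc3* and the other overlapping genes of the list induced by HDAC inhibitors were added after their values were seen. Titles number samples 1 and 2 in both groups. The study counts samples as independent experiments, but neither it nor the labels say that equal numbers share one.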

Additional observations from a re-analysis of the deposited data

How the results depend on the processing

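Of the 10 histone deacetylase genes, 8 kept the sign of their difference in all 18 alternatives, and the exceptions were *Hdac1* and *Hdac2*. The *Hdac1* difference turned positive with median-of-ratios (0.0391) or quantile scaling (0.0085), edgeR with (0.0474) or without (0.0470) a filter, edgeR with the replicate block (0.0356) or the crossed block (0.0362), and DESeq2 (0.0516). Leaving out 1 sample gave -0.18 to 0.18 for *Hdac1*, -0.13 to 0.0343 for *Hdac2*, -0.10 to 0.28 for *Elmsan1*, -0.34 to 0.0658 for *Mef2c*, -0.61 to -0.31 for *Hdac5*, 0.03 to 0.35 for *Hdac4*, -0.14 to 0.0669 for the class I sum, -0.27 to -0.05 for class IIa, -0.31 to -0.11 for class IIb, and 6 to 8 family members lower without overlap. Median-of-ratios scaling moved the class IV ratio to -0.18. The cause of these moves was not tested.

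The count of all genes called was 0 in limma, where 2011 had an unadjusted p under 0.05, and 0 in edgeR, where 1055 did. It was 118 in DESeq2, with 2 partner genes (*Tuba1c* and *Sfn*), and 52 in edgeR with the replicate block, with 1 partner gene (*Sfn*, adjusted p = 0.0256; *Tuba1c* 0.0520) and 0 family members; limma with that block called 0. Deviations of same-numbered samples were negatively correlated over genes (-0.421), which cannot tell whether equal numbers shared an experiment. With crossed numbers as a block edgeR called 621 genes, 5 of them partners (*Rcor2*, *Sap30*, *Txnip*, *Tuba1c* and *Sfn*). It also called 1 family member, *Hdac5* (-0.43, adjusted p = 0.00777), where 2.27% of tested genes were called lower, while limma with that block called 0. With 2 samples per group, changes inside the 95% intervals could not be told from none.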

Other observations

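Among the 45 ratios between pairs of histone deacetylase genes within a library, 19 (42.2%) did not overlap between the groups, and in 4 (8.89%) the gap between groups exceeded the largest difference between replicates. Over all pairs of the 12902 genes averaging at least 10 normalized reads the shares were 39.2% and 12.9%, so the counts for the family, whose ratios share 10 genes, were near or below the background. These 4 were *Hdac4* over *Hdac5*, *Hdac8* over *Hdac5*, *Hdac8* over *Hdac11* and *Hdac8* over *Hdac6*. The log2 ratio of *Hdac4* to *Hdac5* was 0.11 and 0.12 in high MMP cells against -0.52 and -0.56 in low MMP cells. The group means differed by 0.65, with replicates within 0.03 of each other. Each gene alone varied more between replicates than this ratio did: *Hdac4* and *Hdac5* were both higher in replicate 2 of high MMP cells and both lower in replicate 2 of low MMP cells. The ratio was chosen after its values were seen and carries no test.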
